A study of Mus musculus with 12 samples.

Results

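Dmrta1, Dmrta2 and Dmrt3 were followed in the neural tube of mouse embryos over the day in which the tube forms and closes. They were taken by name, with every probe set on the array that the platform annotation assigns to 1 of them alone, which gave 6 probe sets for 3 of 18193 genes. The genes had been picked with their stage profiles in these arrays already known, so their levels and stage differences are a description and carry no test. Neural tubes came from untreated ICR (CD-1) embryos, an outbred stock, at gestation days 8.5, 9.0 and 9.5 (GD8.5, GD9.0 and GD9.5), and each stage had 4 arrays labelled as biological replicates. The labels do not say whether a replicate was 1 embryo, a litter or a pool, so the spread between arrays may be in part technical. The whole micro-dissected tube was profiled, and in such bulk RNA fewer cells of a type and less RNA per cell cannot be told apart.

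The 3 genes encode transcription factors that bind DNA through the DM domain, a zinc-binding module named after Doublesex of the fly and MAB-3 of the worm. Most relatives in the family are known from gonads, but these 3 also act in the embryonic nervous system. In the mouse telencephalon, the front part of the neural tube that becomes the cerebral hemispheres, all 3 are expressed in dorsal and medial progenitors. Dmrta2, also called Dmrt5, is required there for the cortical hem, a Wnt and Bmp signalling centre of the dorsal midline, and for the hippocampus. Dmrt3 overlaps with it in the telencephalon and also marks a class of commissural interneurons in the spinal cord. Dmrta1, also called Dmrt4, overlaps with them in the cortex and is expressed in olfactory ectoderm of vertebrate embryos.

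On the GRCm38 assembly Dmrta1 (gene ID 242523) lies on chromosome 4 from 89688198 to 89694766 and Dmrta2 (gene ID 242620) on the same chromosome from 109977989 to 109983691. Dmrt3 (gene ID 240590) lies on chromosome 19 from 25610246 to 25623921. The promoter windows of the RefSeq table, 250 bases before and 50 after a transcript start, are shown because the 3 genes differed in their stage profiles. The windows are chr4:109977775-109978074 for Dmrta2, chr4:89687948-89688247 for Dmrta1 and chr19:25610287-25610586 for Dmrt3, all on the plus strand of GRCm38.p6. The transcript start of the Dmrta1 window is the start of the gene given above, but that of Dmrta2 lies 36 bases and that of Dmrt3 291 bases inside the gene. The Dmrt3 window begins 41 bases inside the annotated gene, so it holds no base upstream of it. Capitals mark matches, on either strand, to ACANTGT (core of the site bound by DM-domain proteins), AACAAT (Sox core), the CCAAT box, then CTTTGA (TCF/LEF core), CAGNTG (an E-box form bound by proneural factors) and GGGCGG (GC box).
Dmrta2: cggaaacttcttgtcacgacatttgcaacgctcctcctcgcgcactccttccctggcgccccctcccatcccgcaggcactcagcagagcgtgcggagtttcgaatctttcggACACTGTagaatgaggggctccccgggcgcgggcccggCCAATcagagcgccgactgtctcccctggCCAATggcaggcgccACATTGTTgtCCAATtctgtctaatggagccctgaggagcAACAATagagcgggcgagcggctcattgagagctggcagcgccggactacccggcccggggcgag
Dmrta1: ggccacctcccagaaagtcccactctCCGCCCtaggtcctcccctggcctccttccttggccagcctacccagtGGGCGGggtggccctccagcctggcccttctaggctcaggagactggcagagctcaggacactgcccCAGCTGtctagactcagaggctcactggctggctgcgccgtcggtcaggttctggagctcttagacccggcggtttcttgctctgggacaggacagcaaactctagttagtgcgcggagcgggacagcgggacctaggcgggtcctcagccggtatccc
Dmrt3: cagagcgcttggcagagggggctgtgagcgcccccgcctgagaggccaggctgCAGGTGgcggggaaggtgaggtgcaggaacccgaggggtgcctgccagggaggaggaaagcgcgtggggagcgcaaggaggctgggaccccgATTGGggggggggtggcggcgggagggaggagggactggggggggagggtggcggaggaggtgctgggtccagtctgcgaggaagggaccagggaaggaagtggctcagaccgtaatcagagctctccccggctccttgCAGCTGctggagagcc
The Dmrta2 window held 2 matches to ACANTGT. The match ACACTGT began at position -137 and the match ACATTGT at position -55 from the transcript start. Among all 32851 promoter windows 7.54% held at least 1 such match and 0.377% held 2 or more. It also held 2 matches to AACAAT, where 1.11% of windows held 2 or more, and 3 to CCAAT, where 3.37% held 3 or more. The match ATTGTT, which is AACAAT on the other strand, overlapped the ACATTGT match. The Dmrta1 window held the E-box CAGCTG and 2 GC boxes, and the Dmrt3 window held the E-boxes CAGGTG and CAGCTG and 1 CCAAT on the other strand. The E-box form was in 51.4% of all windows, the GC box in 35.7% and CCAAT in 37.4%. Of all windows, 18.2% held 2 or more of the E-box form and 19.5% held 2 or more GC boxes. Neither the DM core nor the Sox core (10.7% of windows) was in these 2 windows, and the TCF/LEF core (16.0% of windows) was in none of the 3. The motifs were chosen after the windows had been read, and a match is a string of letters, not a measured site.

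Replicates 3 and 4 of GD8.5 and all arrays of the later stages were on the log2 scale, 10 in all, but GD8.5 replicates 1 and 2 were linear, so stage differences rest on n = 2 at GD8.5 and n = 4 at GD9.0 and at GD9.5. Signal at or under 1.42, the level below which 95% of 39 olfactory receptor genes lay, was taken as background. Of 12 neural tube markers 0 were at background at any stage, with a mean log2 level of 5.52 to 5.57 at GD8.5, 5.87 to 5.93 at GD9.0 and 6.46 to 6.53 at GD9.5. Of the marker lists for other tissues, 4 had stage ranges of their mean level that did not overlap and ran in 1 direction over the day. The mean level of 10 cardiac muscle markers was 6.06 to 6.19 at GD8.5, 3.10 to 3.21 at GD9.0 and 1.45 to 1.56 at GD9.5, when Tnnt2, Myl4, Myh6 and Ttn were at background. The 11 endoderm and yolk sac markers ran from 6.39 to 6.40, from 3.51 to 3.59 and from 1.76 to 1.82 at the same stages, with Apob, Amn and Cubn at background at GD9.5. The 7 erythroid markers ran the other way, from 5.16 to 5.37, from 6.47 to 6.55 and from 7.14 to 7.29. The 10 surface ectoderm markers ran from 5.19 to 5.26, from 4.64 to 4.71 and from 3.99 to 4.10. Endothelial markers overlapped between stages (3.20 to 3.25, 3.19 to 3.31 and 3.10 to 3.20), head mesenchyme and neural crest markers were highest at GD9.0 (4.32 to 4.44, 4.73 to 4.77 and 4.59 to 4.65), and paraxial mesoderm markers were highest at GD8.5 (2.33 to 2.40, 1.56 to 1.74 and 1.58 to 1.65). The part of this tissue mix in the stage differences below was not tested.

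Dmrta2 was higher at each later stage. Its single probe set, 1441107_at, read 4.58 and 4.39 at GD8.5, then 6.24, 6.05, 6.17 and 6.18 at GD9.0, and 6.88, 6.83, 6.84 and 6.85 at GD9.5 (log2 expression). No array of 1 stage overlapped an array of another, and the arrays of GD9.5 lay closest together. The level was 6.16 ± 0.08 (SD, n = 4) at GD9.0 against 4.48 ± 0.13 (n = 2) at GD8.5, a difference of 1.68 ± 0.08 (SE of the fit) or 3.20-fold. At GD9.5 it was 6.85 ± 0.02 (SD, n = 4), a further 0.69 ± 0.06 (SE) or 1.61-fold above GD9.0. Over the whole day the difference came to 2.37 ± 0.08 (SE), which is 5.15-fold. The second step was smaller than the first by 0.99 ± 0.12 (SE) on the log2 scale. Of all 45037 probe sets 3.54% had this profile, with arrays of both later stages above all arrays of the stage before.

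Dmrta1 was highest at GD9.0. Its single probe set, 1441579_at, read 3.01 and 3.06 at GD8.5, then 4.34, 4.69, 4.75 and 4.72 at GD9.0, and 3.60, 3.49, 3.62 and 4.11 at GD9.5. The GD9.0 arrays lay above all others, and replicate 4 of GD9.5 stood above the other arrays of that stage. The level was 4.63 ± 0.19 (SD, n = 4) at GD9.0 against 3.04 ± 0.04 (n = 2) at GD8.5, a difference of 1.59 ± 0.16 (SE) or 3.00-fold. At GD9.5 it was 3.70 ± 0.27 (SD, n = 4), which differed from GD9.0 by -0.92 ± 0.13 (SE) and was 1.89-fold lower. The second change minus the first was -2.51 ± 0.24 (SE). A profile with the GD9.0 arrays above all others was found in 3.2% of all probe sets. GD9.5 remained above GD8.5 by 0.67 ± 0.16 (SE), but this difference was 0.32 ± 0.19 when the 2 linear GD8.5 arrays were added after log2 and quantile normalization, an alternative called 12 arrays below.

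The 18S ribosomal RNA signal and the actin 3' to 5' gap, a measure of RNA length, both had their lowest values at GD9.0, where Dmrta1 had its highest level. The 18S ribosomal RNA control probe sets averaged 9.82 to 9.83 at GD8.5, 8.65 to 9.05 at GD9.0 and 10.2 to 10.4 at GD9.5. Actin controls at the 3' end exceeded those at the 5' end, a gap that widens with shorter RNA, by 0.70 to 0.72, by 0.53 to 0.59 and by 0.90 to 0.97 at these stages (log2). These measures differed between all 3 stages, and their part in the Dmrta1 profile and in the other stage differences was not tested. Of 9 genes of olfactory and preplacodal ectoderm, where Dmrta1 is also known, 0 rose and 1 fell between GD8.5 and GD9.0, called the first interval below, while 5.45% of all genes rose and 5.64% fell. In the second interval, between GD9.0 and GD9.5, 1 of the 9 rose and 3 fell, while 12.6% of all genes rose and 8.75% fell. They averaged 3.29 to 3.42 at GD8.5, 3.11 to 3.24 at GD9.0 and 3.00 to 3.13 at GD9.5, so their mean level was not highest at GD9.0.

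Dmrt3 stood higher at both later stages than at GD8.5, by under 1.5-fold in the 10 log2 arrays. Its brightest probe set, 1440707_at, read 3.53 and 3.63 at GD8.5, then 3.96, 4.10, 4.05 and 3.84 at GD9.0, and 4.02, 4.24, 4.20 and 3.87 at GD9.5. All arrays of the later stages lay above the GD8.5 arrays, while GD9.0 and GD9.5 overlapped. The level was 3.99 ± 0.12 (SD, n = 4) at GD9.0 against 3.58 ± 0.07 (n = 2) at GD8.5, a difference of 0.41 ± 0.11 (SE) or 1.33-fold. GD9.5, at 4.08 ± 0.17 (SD, n = 4), differed from GD9.0 by 0.09 ± 0.09 (SE), less than the spread between arrays. Over the day the difference was 0.50 ± 0.11 (SE). A step above GD8.5 followed by overlap of GD9.0 and GD9.5 was found in 8.78% of all probe sets.

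The other 3 probe sets of Dmrt3 showed no signal above background in any stage mean. The probe set 1449763_at ranged from 1.05 to 1.34, 1460267_at from 0.91 to 1.26 and 1420182_x_at from 0.87 to 1.43 over the 10 arrays, the last above 1.42 on 1 array. All 3 were designed from 1 sequence, a different one from that of the bright set. The Dmrt3 difference therefore rests on 1 of 4 probe sets. It was 0.14 ± 0.08 (SE) for GD9.0 minus GD8.5 when the 4 were averaged, and 0.68 ± 0.17 with the 2 linear arrays added.

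**Figure D1:**
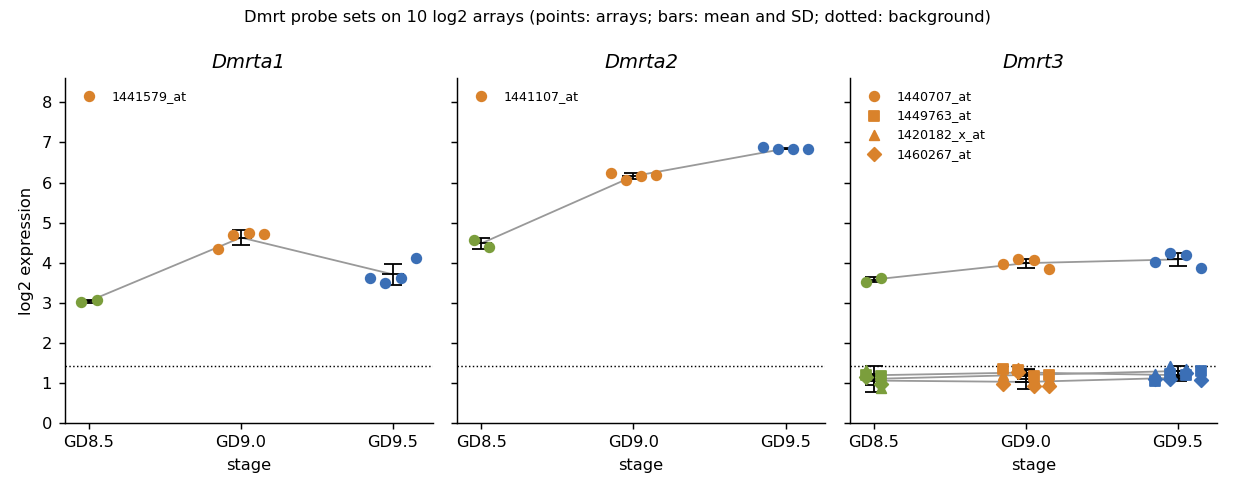
Log2 expression of the 6 probe sets on each of the 10 log2 arrays, by stage, with points for arrays, bars for mean and SD, and a dotted line at the background of 1.42. Dmrta2 steps up at both later stages, Dmrta1 is highest at GD9.0, and only 1 of 4 Dmrt3 probe sets lies above the line.

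Read together, 3 of the 6 probe sets had all GD9.0 arrays above all GD8.5 arrays and 0 had them below, where 15.5% of all probe sets lay above and 13.5% below. For GD9.5 against GD9.0, 1 lay above (10.6% of all) and 1 below (10.5%), and 4 overlapped. For GD9.5 against GD8.5, 3 lay above (18.6% of all) and 0 below (19.6%). The genes were chosen by these contrasts, so nothing follows from the counts. Across the 10 arrays, which share their stages, Dmrta2 and Dmrt3 had a Pearson correlation of 0.83, Dmrta1 and Dmrta2 of 0.42, and Dmrta1 and Dmrt3 of 0.39.

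The 2 linear GD8.5 arrays, which had no part in the differences above, allow a comparison of ranks within each array. The processing notes do not say which method made which column, so ranks on linear and log2 arrays may also differ by method. The dim Dmrt3 set 1420182_x_at ranked at 48.0 and 24.1 on the linear arrays and at 31.1 and 2.8 on the log2 arrays of GD8.5. Dmrta2 ranked at the 77.2 and 78.0 percentile of all probe sets on these arrays, next to 77.4 and 76.5 on the log2 arrays of GD8.5. It ranked from 87.5 to 88.4 at GD9.0 and from 91.5 to 91.8 at GD9.5, so that all 4 GD8.5 arrays lay below both later stages. Dmrta1 ranked at 68.1 and 73.3 on the linear arrays and at 66.3 and 66.9 on the log2 arrays of GD8.5. Its ranks were 75.9 to 78.5 at GD9.0 and 69.6 to 73.7 at GD9.5. The 4 GD8.5 ranks thus stayed below GD9.0 but overlapped those of GD9.5. Dmrt3 ranked at 68.0 and 63.9 on the linear arrays and at 70.1 and 71.2 on the log2 arrays of GD8.5, against 72.5 to 74.5 at GD9.0 and 72.1 to 75.1 at GD9.5. All 4 of its GD8.5 ranks were the lower ones, but the nearest, 71.2 at GD8.5 and 72.1 at GD9.5, lay close together.

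**Figure D2:**
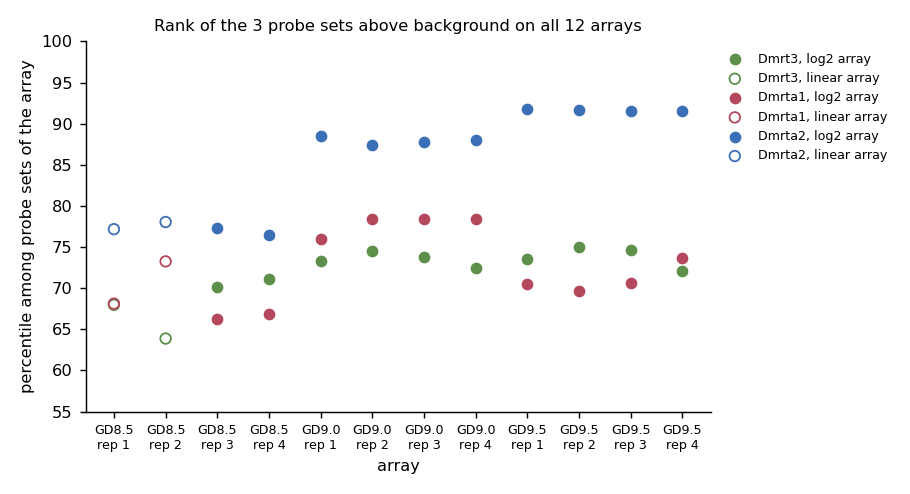
Percentile of the 3 probe sets above background among all probe sets of each array, for all 12 arrays, with open circles for the 2 linear GD8.5 arrays. Dmrta2 separates all 3 stages, whereas Dmrta1 on the linear arrays (68.1 and 73.3) reaches the range of GD9.5 (69.6 to 73.7).

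Of 8 relatives of the family, 5 had a single-gene probe set and the others were not analysed here. Dmrt1, a factor of the gonad, ranged from 0.97 to 1.37, Dmrt2, a factor of the somites, from 0.89 to 1.27, and Dmrtc2, another family member, was also under 1.42, so all 3 were at background on all 10 arrays. Dmrtb1 ranged from 1.44 to 1.87. Of the 2 probe sets of Dmrtc1a, 1431360_s_at ranged from 1.69 to 2.33 and 1429573_at from 1.07 to 1.53, the last above background on 1 array. Dmrt1 and Dmrt2 flank Dmrt3 on chromosome 19, at 5.92 kb and 48.5 kb in the annotation.

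The neighbours of the 3 genes, 2 protein-coding genes on each side, gave 12 genes, of which 4 were at background at all 3 stages. Of the other 8, 2 rose and 0 fell in the first interval, and 2 rose and 1 fell in the second. The all-gene shares given above were 5.45% and 5.64%, then 12.6% and 8.75%. Those shares include genes at background, which were left out of the 8. Elavl4, which encodes a neuronal RNA-binding protein and lies 220 kb beyond Dmrta2, rose at both steps, by 1.74 ± 0.12 (SE) and by 1.62 ± 0.10 (limma with Benjamini-Hochberg adjustment over all probe sets, adjusted p = 1.5e-06 and 4.9e-07). Elavl2, a close relative of it 1517 kb beyond Dmrta1, rose by 0.59 ± 0.07 and by 0.67 ± 0.06 (adjusted p = 0.00019 and 8.8e-06), while Dmrta1 itself was lower at GD9.5 than at GD9.0. Faf1, 14 kb from Dmrta2 on the other side, stood at -0.19 ± 0.06 and 0.04 ± 0.05 and did not pass in either interval. Next to Dmrt3, Kank1 stood at 0.04 ± 0.09 and -0.02 ± 0.07, and Smarca2, a chromatin remodelling ATPase, fell in the second interval (-0.30 ± 0.07, adjusted p = 0.017 by limma). The Smarca2 call was lost with 12 arrays (adjusted p = 0.098 by limma) and with its probe sets averaged (0.057), where the other alternatives reached down to 0.0025. The second interval compares no GD8.5 array. With 12 arrays the linear arrays enter the estimate of the spread that all stages share. They also enter the quantile normalization, which changes the values of the later arrays. The part of either in the lost Smarca2 call was not tested.

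Genes that work with the Dmrt factors in the dorsal telencephalon were set beside them. Emx2, Lhx2, Pax6, Wnt8b and Gsx2 are also in gene lists below that were chosen with earlier results of these data known. The p-values of the partner genes given here are taken as a description and not as independent support. The whole tube was profiled, so the region in which a gene changed was not measured, here or in the lists below. Emx2, a homeobox gene of the medial cortex, rose by 1.44 ± 0.11 (SE) in the first interval and by 0.71 ± 0.09 in the second, when it reached 5.71 ± 0.15 (SD, n = 4). Those steps stand beside 1.68 and 0.69 for Dmrta2. Wnt8b, a Wnt ligand of the cortical hem, rose by 2.16 ± 0.07 (SE) and 0.39 ± 0.06 (2 of 3 probe sets in each interval, and 0.95 and 0.27 with the 3 averaged). Its dimmer sets had stage means from 1.18 to 2.32. Lhx2, a LIM homeobox gene that sets cortical against hem fate, rose by 0.71 ± 0.08 and 0.55 ± 0.06. By limma with Benjamini-Hochberg adjustment the adjusted p of these 6 changes ran from 3.0e-09 to 0.00065, and the second Wnt8b call was lost with 12 arrays (adjusted p = 0.16, with a range over all alternatives down to 3.3e-05). Pax6, a paired homeobox gene of cortical progenitors, rose in the first interval by 0.47 ± 0.08 (2 of 5 probe sets, adjusted p = 0.0035) and stood at 0.04 ± 0.07 in the second. The first Pax6 call was lost with 12 arrays (0.24 ± 0.11, adjusted p = 0.22) and without GD8.5 replicate 4 (adjusted p = 0.053), with limma's adjusted p from 6.5e-06 to 0.22 over all alternatives. Neurog2, a proneural factor of the cortex, rose by 1.21 ± 0.13 (adjusted p = 9.1e-05) and then stood at 0.33 ± 0.11 (adjusted p = 0.055), a difference that passed in 7 of 19 alternatives. Gsx2, a ventral telencephalic factor that Dmrta2 and Dmrt3 repress in the mouse, was at background at all 3 stages, with means of 1.09, 1.23 and 1.36.

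**Figure D3:**
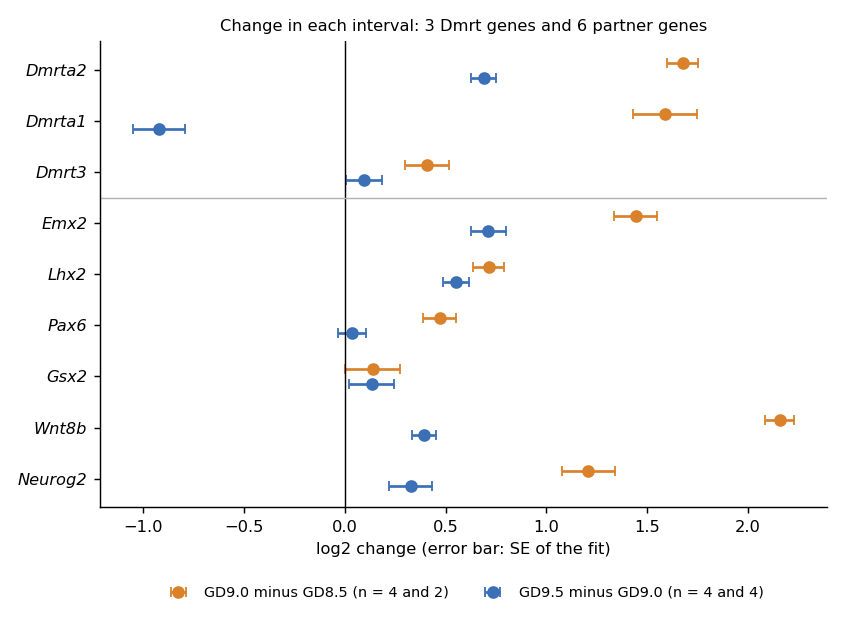
Log2 change of each gene's brightest probe set from GD8.5 to GD9.0 and from GD9.0 to GD9.5, with the SE of the fit, for the 3 Dmrt genes above the line and 6 partner genes below it. Dmrta1 is the 1 gene shown whose change in the second interval lies below 0 (-0.92), and Emx2 (1.44 and 0.71) lies near Dmrta2 (1.68 and 0.69) in both.

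The gene lists, like the 3 members, were chosen with earlier results of these data known. Their counts and p-values, here and below, are a description and give no independent support. In a list of 28 measured forebrain factors, 11 rose and 2 fell in the first interval, beside the 5.45% and 5.64% of all genes given above. The median log2 change was 0.30 against -0.0019 over all genes. In the second, 9 rose and 5 fell, beside 12.6% and 8.75% of all genes, with a median of 0.13 against -0.0077 over all genes. Apart from Emx2, the largest rises were in Nr2e1, an orphan nuclear receptor of forebrain progenitors (1.39 ± 0.12 SE and 0.77 ± 0.10), Six6, an eye field homeobox gene (0.84 ± 0.10 in the first interval), Fezf2, a zinc finger gene of the forebrain (1.45 ± 0.08 in the second), and Lhx9, a LIM homeobox gene (0.83 ± 0.09 in the second, 2 of 4 probe sets). Six6 fell in the second interval (-0.84 ± 0.08), and Dmrta1 likewise stood higher at GD9.0 than at the other stages. Hesx1, a repressor of the anterior neural plate, fell in both (-3.09 ± 0.08 and -0.64 ± 0.06), as did Rax, of the eye field, in the second (-0.58 ± 0.17). Six3, of the rostral forebrain, stood at -0.38 ± 0.09 with 1 of 3 probe sets called. By limma with Benjamini-Hochberg adjustment the Six3 call was lost in 5 of 19 alternatives, among them 12 arrays and the data without GD8.5 replicate 3 (adjusted p = 0.070) or replicate 4 (0.18), and its adjusted p ran from 0.0012 to 0.18. The Rax call was lost in 6 of 19, among them the data without GD9.0 replicate 1 or 4 or GD9.5 replicate 1 or 2, and its adjusted p ran from 0.0031 to 0.091. Without GD8.5 replicate 3, or without replicate 4, 1 of these factors fell in the first interval.

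Of 25 measured signals and readouts of the dorsal midline, 6 rose and 5 fell in the first interval with a median of 0.0014, and 12 rose and 5 fell in the second with a median of 0.15. Of all genes 5.45% rose and 5.64% fell in the first and 12.6% and 8.75% in the second. The largest rises were in R-spondins, secreted enhancers of Wnt signalling, and in Zic1, which encodes a dorsal zinc finger protein. Rspo2 rose by 2.78 ± 0.11 (SE) and 0.92 ± 0.09, Zic1 by 2.40 ± 0.07 and 0.91 ± 0.06, Rspo1 by 2.22 ± 0.09 in the first interval and Rspo3 by 1.70 ± 0.06 in the second. For Rspo2 and for Rspo3 1 of 2 probe sets was called, and with both averaged the changes were 1.31 and 0.46 for Rspo2 and 0.99 for Rspo3. The uncalled set of Rspo2 was at background at every stage, with means of 1.39, 1.24 and 1.23. That of Rspo3 had means of 1.08, 1.18 and 1.47, so both averages include a set with little or no signal. The largest falls were in Bmp2 (-1.37 ± 0.12 SE and -1.50 ± 0.10) and, in the first interval, Bmp4 (-0.79 ± 0.14), both ligands of the Bmp pathway. Bmp4 rose in the second interval (0.43 ± 0.11, adjusted p = 0.020 by limma), and its GD9.5 minus GD8.5 change was not called (-0.36 ± 0.14). Sp5, a Wnt target, fell in both (-0.48 ± 0.09 and -0.44 ± 0.07), and Bmp5 in the second (-0.58 ± 0.08, 2 of 3 probe sets). With 12 arrays there were 2 and 3 falls, and 6 rises in the second interval. Both Sp5 calls were lost there (adjusted p = 0.39 and 0.066 by limma), and the first was also lost without GD8.5 replicate 4 (0.084). Over all alternatives the adjusted p of Sp5 ran down to 0.00068 and 7.9e-05. Without GD8.5 replicate 3 there were 2 falls in the first interval and the Bmp4 call was lost (adjusted p = 0.063 by limma, with other alternatives down to 3.1e-05), and without replicate 4 there were 3.

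Of 22 measured genes listed as tied to Dmrt function, 9 rose and 2 fell in each interval, with medians of 0.14 and 0.15. The list is a loose one and also holds Gsx2, which Dmrta2 and Dmrt3 repress. Its counts of rises and falls therefore do not bear on dependence on a Dmrt factor. The all-gene shares were again 5.45% and 5.64%, then 12.6% and 8.75%, so the share that fell in the second interval was near that of all genes. The list shares Emx2, Lhx2, Pax6, Wnt8b and others with the lists above. Neurog1, a proneural factor, rose by 2.46 ± 0.11 (SE) in the first interval in 1 of 2 probe sets, the other standing at -0.05 ± 0.14, and by 1.21 with both averaged. Ebf3 and Ebf2, factors of early neurons, rose by 1.21 ± 0.13 and 0.70 ± 0.08 in the second. For Ebf3 3 of 3 probe sets were called there and for Ebf2 2 of 3, the other standing at 0.11 ± 0.11. Foxa2, of the floor plate and endoderm, fell in both (-1.07 ± 0.10 and -0.38 ± 0.08), beside the lower endoderm markers given above. Hes1, a Notch target, fell in the second (-0.35 ± 0.06), and Wt1, which with Dmrt3 marks spinal interneurons, was at least 1.17-fold lower at GD9.0, where it was at background. The Wt1 call was lost without GD8.5 replicate 3 (adjusted p = 0.13 by limma, with other alternatives down to 0.0016), which left 1 fall. With 12 arrays 5 of the genes rose in the second interval.

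The genes with the most similar profiles were sought among 13017 genes above background, by the root mean square distance between log2 values centred on each gene's mean over the 10 arrays. For Dmrta2 the closest were Hbb-y (distance 0.10), Zfhx4 (0.12), Hba-x (0.12), 3110039M20Rik (0.12) and Gm3515 (0.13), where the median gene lay at 0.88. Hbb-y and Hba-x are embryonic globins of red cells, and Zfhx4 encodes a zinc finger homeobox protein. Their changes were 1.84 and 0.61 for Hbb-y, 1.64 and 0.59 for Zfhx4 and 1.95 and 0.55 for Hba-x. The 3 probe sets of Hbb-y had first changes from 1.84 to 2.96 and second changes from 0.59 to 1.33. Only the brightest set of each gene entered the search. That of Hbb-y averaged 12.3 at GD9.5, near the highest value of those arrays (12.6 to 12.7). The erythroid markers given above were likewise higher at each later stage, and their part in the Dmrta2 profile was not tested. For Dmrta1 the closest was Rnf152, a ubiquitin ligase, at 0.28, with changes of 1.67 ± 0.13 (SE) and -0.79 ± 0.11. It was followed by Car3, a carbonic anhydrase, at 0.34, Sema3c, a secreted semaphorin, at 0.37, Fgf14 at 0.38 and Epha7, an ephrin receptor, at 0.38, where the median gene lay at 0.66. Second changes ran from -0.19 to 0.01 over the 2 probe sets of Sema3c and from -0.58 to 0.23 over the 4 of Epha7. All of these were above background, so the lower level at GD9.5 was not shared by all of them. For Car3 they ran from -0.78 to 0.07 and for Fgf14 from -0.59 to 0.18. Only 2 of 4 Car3 sets and 1 of 4 Fgf14 sets were above background, so these upper ends may be values at background. For Dmrt3 the closest were Ostm1 (0.09), Ccp110 (0.09), Tmem131l (0.09), Nusap1 (0.10) and Cdc7 (0.10), where the median gene lay at 0.27. Ccp110 encodes a centriole protein, Nusap1 a spindle protein and Cdc7 a kinase of DNA replication. Probe sets of Tmem131l ranged from -0.33 to 0.43 in the first change. The distances reflect mostly the differences between stages, which the arrays of a stage share.

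**Figure D4:**
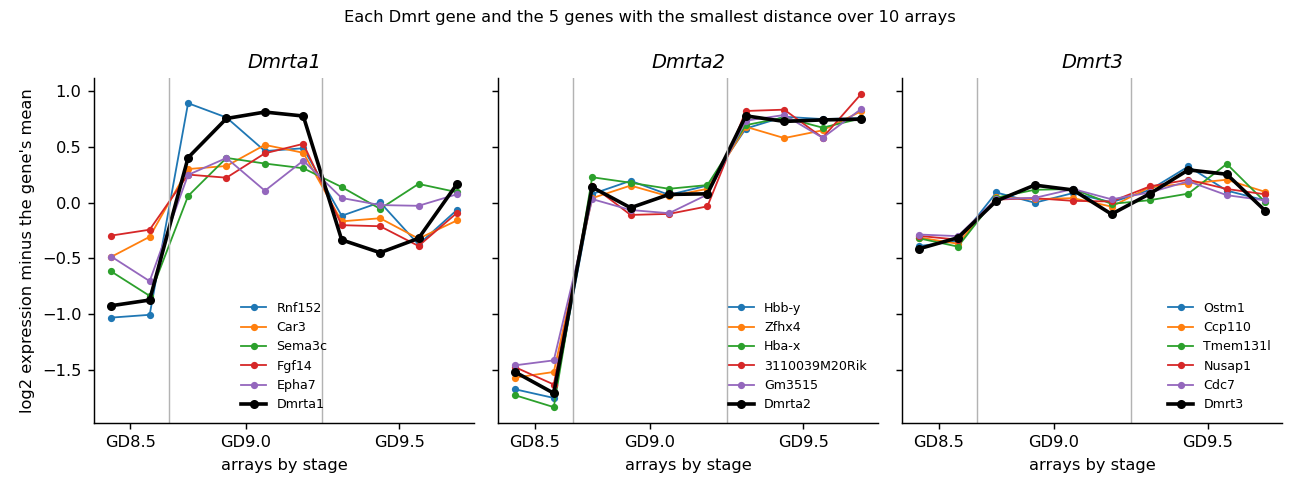
Log2 expression minus the gene's mean over the 10 arrays, for each Dmrt gene (black) and its 5 closest genes, with arrays grouped by stage between the grey lines. The 5 genes beside Dmrta2 follow it within distances of 0.10 to 0.13, those beside Dmrta1 lie farther off, at 0.28 to 0.38.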

How the data were processed

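RNA from dissected neural tubes was measured on Affymetrix mouse arrays, 1 array a sample, per the labels' protocols. The authors deposited log2 expression values for 10 arrays, whose sorted values differ by at most 0.27, and linear intensity values for GD8.5 replicates 1 and 2. Expression Console 1.2.1 is named beside RMA and GCRMA per the submitters' processing notes, without saying which method made which column. The deposited linear intensities had medians of 92.2 and 98.3 and were used for ranks and in 1 alternative.

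Of 45101 probe sets 64 controls were left out. The rest, 45037, were fitted with limma 3.58.1 (R 4.3.3), 1 mean for each stage (7 residual degrees of freedom, prior 4.66), and p-values were adjusted over all of them with the Benjamini-Hochberg method at 0.05. Names came from the platform annotation: 34945 probe sets had 1 gene, 932 several and 9160 none, and 34741 of the single-gene sets matched a gene ID of the GRCm38 reference table. The brightest single-gene probe set stood for a gene in lists. Changes are on the log2 scale, and no detection calls were used.

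Members and gene lists were chosen with earlier results of these data known. Named beside them were fixed partner genes (1 was not analysed here), up to 3 largest rises and falls per list and interval, the 5 most similar genes and chromosomal neighbours, not all of which are printed. The fit was tested on simulated data. Same-numbered arrays of different stages had correlations of deviations from -0.06 to 0.12, so the numbers were not taken as pairs. The highest Pearson correlation of 2 arrays of a stage was 0.997, and any such pair differed by 0.94 or more at some probe set, so none was treated as a duplicate. The number of arrays limits the precision. Alternatives are listed in the closing section.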

Additional observations from a re-analysis of the deposited data

Results flagged for a closer look

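Of 24 groups of 4 arrays examined for a value apart from the others, 2 had one, where chance gives about 1 in 20. For Dmrta1 at GD9.0, replicate 1 read 4.34, with the other arrays of the stage from 4.69 to 4.75, a gap of 0.859 of the range (Dixon's test at the 95% level). Without that array the difference from GD8.5 was 1.68 in place of 1.59. For Dmrt3 at GD9.5, replicate 3 of the probe set 1460267_at read 1.24 against 1.07 to 1.09 in the others, a gap of 0.875 of the range, with all values at background.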

How the results depend on the processing

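The 9 stage differences and 15 counts were recomputed under 19 alternatives, 10 of which left out 1 array, and 0 of the 9 differences changed sign. Adding the linear GD8.5 arrays after log2 and quantile normalization (12 arrays) gave GD9.0 minus GD8.5 and GD9.5 minus GD8.5 differences of 1.25 and 0.32 for Dmrta1, 1.57 and 2.25 for Dmrta2 and 0.68 and 0.72 for Dmrt3. With 12 arrays 3293 probe sets were called in the second interval, against 7667 with 10 arrays. That interval compares no GD8.5 array, but the added arrays enter the estimate of the spread that all stages share. They also enter the quantile normalization, which changes the values of the later arrays. The Dmrta2 change of the second interval was 0.67 ± 0.08 (SE) with 12 arrays against 0.69 ± 0.06. The part of the spread or of the normalization in second-interval calls lost with 12 arrays was not tested. With 12 arrays the counts that fell were 1 and 3 for forebrain factors in the first and second interval and 2 and 3 for the dorsal midline. The second-interval rises were 6 for the midline and 5 for genes tied to Dmrt function. Averaging the probe sets of a gene gave 0.14 and 0.19 for Dmrt3, and 2301, 4081 and 4969 calls for the first interval, the second and the whole day, against 3587, 7667 and 8700. With 1 brightest probe set per gene the last 2 counts were 4429 and 5209. These alternatives test fewer features. Restricting to probe sets above background left 1 fall among genes tied to Dmrt function in the first interval. Leaving out 1 array gave 1867 to 3449 calls in the first interval (1867 without GD8.5 replicate 4 and 2104 without replicate 3) and 5446 to 8628 over the day (5446 without GD8.5 replicate 4). It gave 1.58 to 1.77 and 2.27 to 2.46 for Dmrta2 against GD8.5, 1 to 3 falls among forebrain factors, 2 to 5 for the midline and 1 to 2 for genes tied to Dmrt function in the first interval. With replicate number as a block, 1 forebrain factor fell in the first interval, the calls of Six3 and Rax were lost, no other call of a named gene was, and the Dmrta1 difference was 1.72. Of 42 called changes of named genes, 33 kept their call under all alternatives that could be run and 9 lost it in at least 1. Of 5 that were not called, 2 passed in some. With n = 2 at GD8.5, comparisons with that stage rest on the fewest arrays, and probe sets near the background of 1.42 give only bounds.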
